A study of Mus musculus with 16 samples.

Results

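The clustered replication-dependent histone genes are the gene copies, packed into a few chromosomal clusters, from which dividing cells make the bulk of their histones. They were taken as the rows of the gene table whose symbol starts with Hist1h, Hist2h, Hist3h or Hist4h, and this rule found 69 of 35869 genes. By symbol, 6 of them belong to the linker histone H1, 19 to H2A, 19 to H2B, 12 to H3 and 13 to H4. Hist1h2al of the H2A class and Hist3h2bb-ps of the H2B class are annotated as pseudogenes. 55 have a Hist1 symbol and lie on chromosome 13, 10 lie in the Hist2 cluster on chromosome 3, 3 in the Hist3 group on chromosome 11 and 1, Hist4h4, on chromosome 6. Hist1h2al starts at base 51202727 of chromosome 13, apart from the other Hist1 genes, which lie between bases 21715763 and 23934851. The 1124 olfactory receptor genes, whose symbol starts with Olfr, served as the comparison.

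The study asked how the transcripts of microglia, the resident macrophages of the brain, differ with age and with the uptake of amyloid-β 1-42 (Aβ42). Microglia of wild-type male C57/Bl6 mice aged 2 months (young) or 18 months (old) were sorted as live CD45int CD11b+ cells after incubation with 2.5 µM fluorescent fibril Aβ42 for 2 h. Cells that had taken up the peptide (Aβ42+) and cells of the same pool that had not (Aβ42-) were collected apart, so all 4 groups had met Aβ42 and none was left untreated. Each group held 4 libraries, each a pool of 3 mice, and the age labels do not tell a change with age from any other difference between the 2 cohorts. RNA was selected by its poly(A) tail and read as single reads of 85 bases. Gene levels were given as TPM, transcript abundances scaled by gene length and to a total of 1000000 per library. They keep no record of the number of reads, so the depth behind each value is unknown. Where the values of the 4 groups follow each other without names, young Aβ42+ and Aβ42- come first and old Aβ42+ and Aβ42- last.

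Nucleosomes hold pairs of H2A, H2B, H3 and H4, and H1 binds the DNA between them. The clustered genes are switched on in S phase, when DNA is copied, and their transcripts usually end just after a short stem-loop that takes the place of a poly(A) tail, with the stem-loop binding protein SLBP and the U7 small nuclear RNA directing the cut. Some of these genes also give transcripts with a poly(A) tail, above all in cells that have left the cell cycle, and histone variants outside the clusters, such as H3.3 from H3f3a and H3f3b, are made in all phases. As RNA was selected by its poly(A) tail, the levels, ranks and class sums below cover transcripts that passed this selection. They are not levels of all histone mRNA.

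The stem-loop was looked for in the GENCODE transcripts of build GRCm38 (GG, 4 further stem bases, a loop of 4 bases starting TTT, and the complementary stem). The search covered the whole length of each transcript, not only the part behind the stop codon. It was found in 44 of the 67 protein-coding members and in 49 of 58725 other coding transcripts (0.0834%). Of the 23 coding members without it, 13 had no bases annotated behind the stop codon. The 16 letters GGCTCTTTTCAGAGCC stood in 26 members of the H1, H2A, H2B and H3 classes, and 7 H4 genes carried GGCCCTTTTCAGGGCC in their place. The stem-loops of the members that the comparisons turn on are shown with up to 5 flanking bases on each side, as the sense strand in DNA letters, with the stem-loop in capitals.
Hist1h1c (chr13:23739507-23739532, + strand): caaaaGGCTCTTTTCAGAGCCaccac
Hist2h2aa1 (chr3:96246027-96246052, + strand): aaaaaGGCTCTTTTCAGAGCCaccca
Hist1h2ap (chr13:21833026-21833049, - strand): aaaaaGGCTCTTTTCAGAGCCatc
Hist2h3c1 (chr3:96247322-96247347, + strand): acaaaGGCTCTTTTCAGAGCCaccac
Hist1h4i (chr13:22040961-22040986, - strand): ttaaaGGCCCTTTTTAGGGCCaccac
Hist2h4 (chr3:96262934-96262959, - strand): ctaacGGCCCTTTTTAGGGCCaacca
The 4 H1, H2A and H3 genes shown share 1 stem-loop, and both H4 genes differ from it in the stem and the loop. In 22 members the annotated transcript ended within 100 bases of the stem-loop and in 22 it ran on for longer. Hist1h1c had 840, Hist2h3c1 1167 and Hist2h4 1257 bases annotated behind it, each with the poly(A) signal AATAAA, while Hist2h2aa1 had 35 and Hist1h2ap 3.

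Promoters (250 bases before to 50 after the start, RefSeq, GRCm38.p6) were given for 61 members and searched on both strands for 3 short motifs. TATAAA was in 57.4% of the members and in 13.6% of all 32851 promoters, and CCAAT in 85.2% and 37.4%. CCAAT was in every H1, H2A, H2B and H3 promoter but in 3 of 12 H4 promoters. The octamer ATTTGCAT was in 7 of 17 H2A and 6 of 16 H2B promoters, in none of H1, H3 or H4, and in 1.74% of all promoters. The promoters of Hist1h1c, the member with the highest level, and of Hist1h4i, the highest H4 gene, show this difference, with the motifs in capitals.
Hist1h1c (chr13:23738557-23738856, + strand): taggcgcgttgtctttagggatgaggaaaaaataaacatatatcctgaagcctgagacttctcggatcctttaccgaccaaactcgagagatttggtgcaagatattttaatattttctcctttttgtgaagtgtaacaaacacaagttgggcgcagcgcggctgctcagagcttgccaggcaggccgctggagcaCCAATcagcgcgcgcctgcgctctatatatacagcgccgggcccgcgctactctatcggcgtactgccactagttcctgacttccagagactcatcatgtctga
Hist1h4i (chr13:22041313-22041612, - strand): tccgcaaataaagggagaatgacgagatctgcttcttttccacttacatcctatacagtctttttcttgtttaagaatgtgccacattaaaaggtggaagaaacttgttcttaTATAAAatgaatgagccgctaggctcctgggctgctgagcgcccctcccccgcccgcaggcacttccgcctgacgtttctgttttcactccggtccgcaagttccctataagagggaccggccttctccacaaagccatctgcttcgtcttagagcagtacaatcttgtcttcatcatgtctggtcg
Hist1h1c held CCAAT and no TATAAA, and Hist1h4i held TATAAA and no CCAAT. A match describes letters only and is not a measured binding site.

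Of the members called in the comparisons, Hist1h1c (chr13:23738808-23740367, + strand), Hist1h2an (chr13:21786826-21787218, - strand) and Hist1h2bq (chr13:21806612-21810197, - strand) lie in the Hist1 cluster. Hist2h2aa2 (chr3:96239749-96240276, - strand), Hist2h2aa1 (chr3:96245497-96246082, + strand), Hist2h3c1 (chr3:96246685-96248509, + strand) and Hist2h4 (chr3:96261682-96263311, - strand) lie in the Hist2 cluster (GENCODE, GRCm38). The copies are alike enough to share reads. Of the 85-base windows of each member's transcript, a median of 38.9% also occurred in another gene, 30 members shared more than 50%, and 5 shared none. Hist2h2aa1, Hist2h2aa2 and Hist2h3c1 shared all of them, Hist1h2ap 92.5%, Hist1h2ao 92.9%, Hist1h2bq 95.6% and Hist1h2an 84.1%. The split of reads among such copies is thus uncertain. For Hist2h2aa1, Hist2h2aa2 and Hist2h3c1 the genes that shared windows included ones annotated over the same locus (Gm20632, Gm20633 or Gm20634). Their share is thus not one with other histone copies alone. Hist2h3c1 had 1741 windows, all shared, while its copy Hist2h3c2 had 582 shared windows in all. Hist1h1c shared 6.03%, Hist1h4i 18.8% and Hist2h4 none. At least 6 members overlapped a gene annotated on the opposite strand and at least 3 (Hist2h2aa1, Hist2h3c1 and Hist2h2bb) one on the same strand. By their annotated spans Hist1h2be (chr13:23583670-23621124) and Hist1h1e (chr13:23620629-23622558), both on the - strand, also overlapped each other. Whether the counting used strand is not stated.

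The olfactory receptor genes had a low and even level that differed between libraries, from a trimmed mean of 0.396 TPM per gene in old Aβ42- replicate 1 to 13.2 TPM in old Aβ42+ replicate 3. Replicate 3 was the highest and replicate 1 the lowest library of every group. This level is called the background here. All 10 microglia markers were above 0 in every group, with a summed level of 2567 to 3082 TPM in young Aβ42+ and 1055 to 1844 TPM in old Aβ42-, while granulocyte precursor genes (Elane, Mpo, Prtn3, Ctsg) summed to 72.2 to 136, 1044 to 1767, 141 to 781 and 1676 to 2865 TPM over the libraries of the 4 groups. Fewer cells of a type and less RNA per cell cannot be told apart in these bulk libraries.

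21 of the 69 members lay above the 95th percentile of the olfactory receptor genes in all 16 libraries, and 6 did so in fewer than 8. This percentile was not matched for length, by which TPM are scaled. The longest annotated transcript had a median of 534 bases for the members and 2924 for the olfactory receptor genes. The part of length in these counts was not tested. The 21 were spread over all classes, with 3 of 6 H1, 5 of 19 H2A, 4 of 19 H2B, 4 of 12 H3 and 5 of 13 H4 genes. The number above that percentile in a library averaged 48 ± 9.70, 56 ± 8.04, 54.8 ± 8.34 and 64.8 ± 2.63 (mean ± SD, n = 4 each) in the 4 groups. It was lowest, 37, in young Aβ42+ replicate 3, and it reached 67 in old Aβ42+ replicate 1 and old Aβ42- replicate 1, libraries of low background.

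Hist1h1c, which encodes the H1 variant H1.2, was the highest member, with a mean of 214 TPM over the 16 libraries and a median of 45.6 times the background of its library. The H2A genes Hist2h2aa1 (121 TPM) and Hist2h2aa2 (108 TPM) followed, then Hist1h2ap (73.7 TPM), the H2B gene Hist1h2bc (71.2 TPM), Hist1h2ao (65.8 TPM) and the H4 gene Hist1h4i (61.8 TPM). The highest H3 gene was Hist2h3c2 with 49 TPM. The next members, Hist2h2ab, Hist1h1e, Hist1h2bg, Hist2h4, Hist1h1d, Hist3h2a and Hist1h2bm, had means of 43.9 to 59.7 TPM, and their ranges over the libraries overlapped widely. At the other end stood the H2B gene Hist1h2bp with 5.69 TPM, the testis H1 gene Hist1h1t with 8.44 TPM, the H3 gene Hist1h3f with 11.4 TPM, the H2A gene Hist1h2ak with 11.8 TPM and the H4 gene Hist1h4a with 20.4 TPM. Hist1h1t lay above the olfactory receptor percentile in 5 of 16 libraries and Hist1h4a in 14. Members with a stem-loop and over 100 further annotated bases had a median level of 31.9 TPM, those with at most 100 28.4 TPM, and the 25 without a stem-loop found 17.8 TPM.

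**Figure D1:**
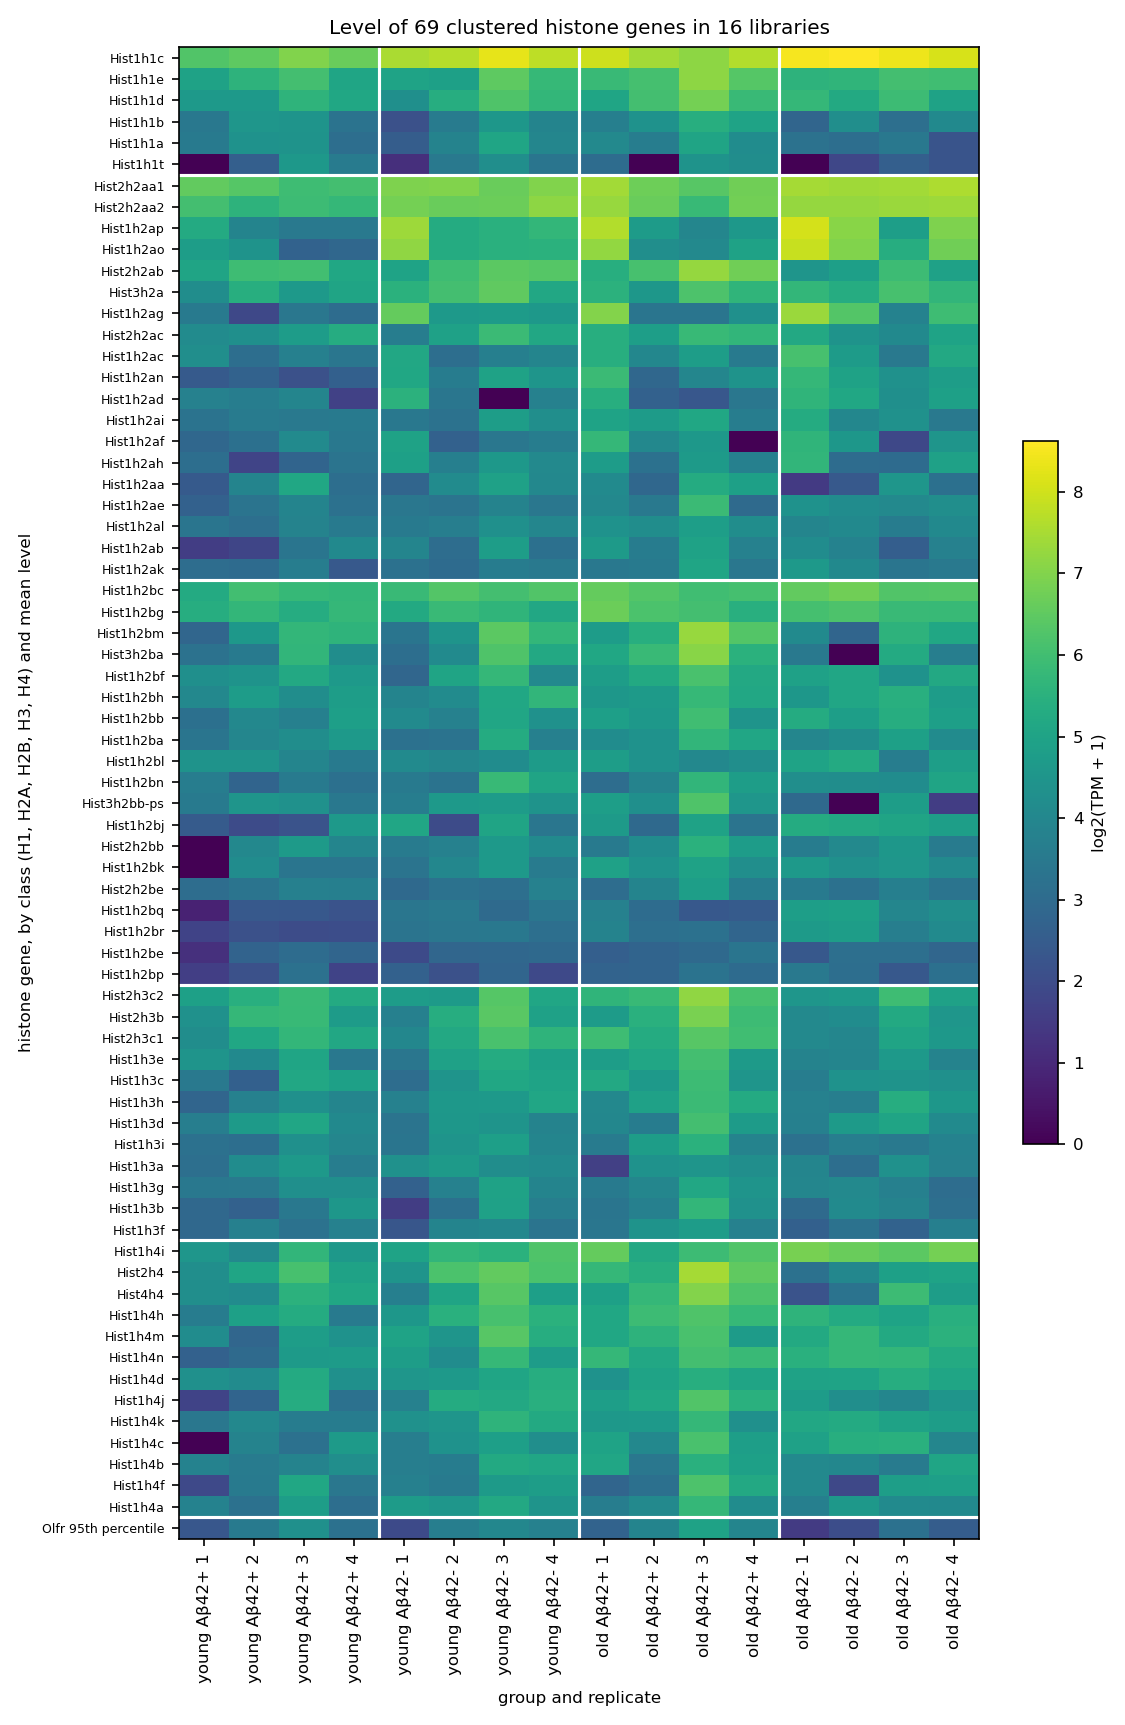
Heat map of log2(TPM + 1) of the 69 histone genes (rows, by class and falling mean level, white lines between classes) in the 16 libraries (columns, by group and replicate), with the 95th percentile of the olfactory receptor genes as the last row. Hist1h1c, Hist2h2aa1 and Hist2h2aa2 are bright in every library, a set of H2A genes led by Hist1h2ap is brightest in replicate 1 of each group, and many H3 and H4 genes are brightest in old Aβ42+ replicate 3.

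Summed over the class, H1 genes came to 213 ± 63.5 in young Aβ42+ and 364 ± 135 in young Aβ42- libraries, and to 398 ± 65.3 in old Aβ42+ and 465 ± 51.1 in old Aβ42- TPM (mean ± SD, n = 4). Hist1h1c, Hist1h1e and Hist1h1d made up 89% of the H1 sum over all libraries. H2A genes summed to 375 ± 27 in young Aβ42+ and 747 ± 157 in young Aβ42- libraries, and to 794 ± 332 in old Aβ42+ and 1024 ± 332 in old Aβ42- TPM. H2B genes summed to 328 ± 85.9 in young Aβ42+ and 435 ± 159 in young Aβ42- libraries, and to 622 ± 224 in old Aβ42+ and 499 ± 27.9 in old Aβ42- TPM. H3 genes summed to 251 ± 85.6 in young Aβ42+ and 292 ± 139.6 in young Aβ42- libraries, and to 438 ± 224 in old Aβ42+ and 212 ± 67.1 in old Aβ42- TPM and H4 genes to 252 ± 121 in young Aβ42+ and 454 ± 173 in young Aβ42- libraries, and to 606 ± 261 in old Aβ42+ and 449 ± 27.2 in old Aβ42- TPM. The H2A sum thus had its lowest mean in young Aβ42+ and its highest in old Aβ42-, and the 4 young Aβ42+ libraries (339 to 404 TPM) lay below the other 12. The H3 sum had its lowest mean in old Aβ42-, where its 4 libraries overlapped those of the other groups, as they did in the background. With the background subtracted from each gene, the H2A sum of young Aβ42+ fell to 303.0 TPM and the H2B sum of old Aβ42- to 470.0 TPM, a shift beyond 1 SD.

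**Figure D2:**
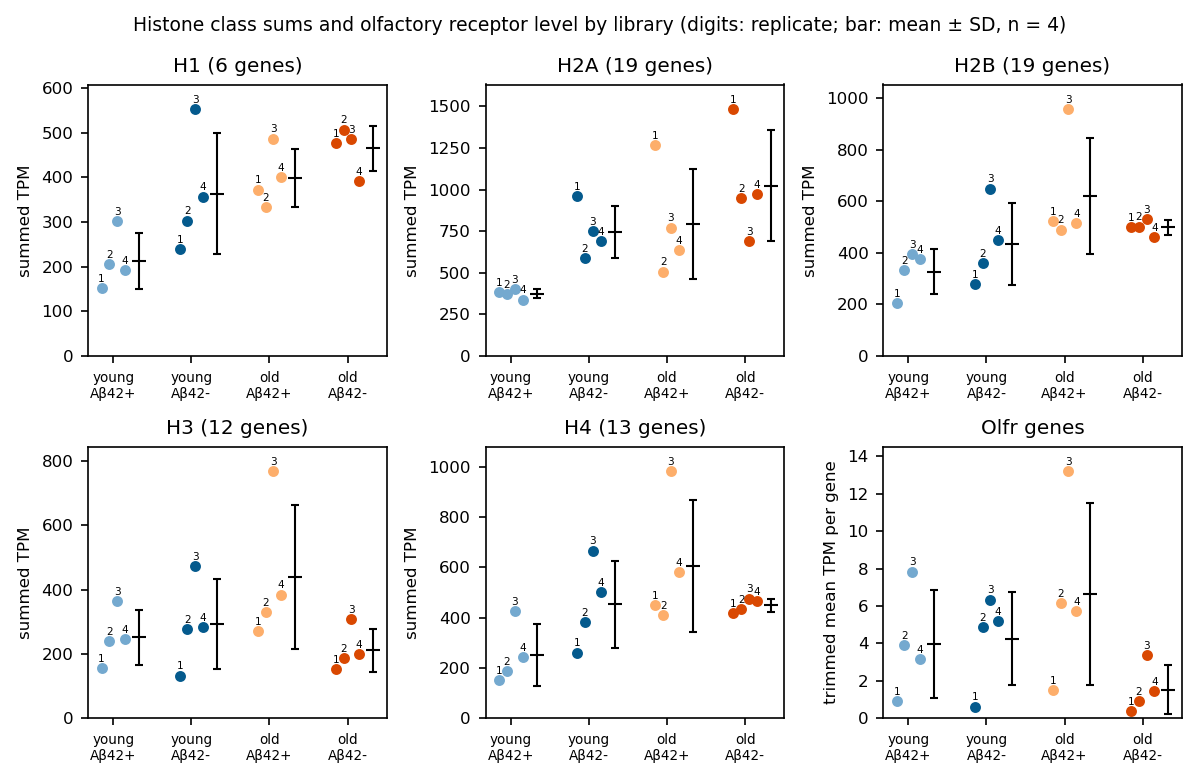
Summed TPM of each histone class and the trimmed mean TPM of the olfactory receptor genes (vertical axes, linear, from 0) in each library, by group; digits give the replicate and bars the mean ± SD (n = 4). Replicate 3 is the highest library of each group for H3 and H4, as for the olfactory receptors, whereas replicate 1 is the highest for H2A in all groups but young Aβ42+.

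The first comparison asked how cells without Aβ42 differed from cells with it in young mice. 3 members rose in Aβ42- cells, Hist1h1c, Hist2h2aa2 and the H2A gene Hist1h2an, and none fell (limma on log2(TPM + 1), Benjamini-Hochberg adjusted p at most 0.05 over all genes). These are 4.35% of the members, beside 1.43% of all 33281 genes tested that rose. 56 of the 69 fold changes were above 0, under the deposited scaling as under TMM scaling, and their median was 0.41 on the log2 scale against 0.04 for all genes and 0.09 for the olfactory receptor genes. Members that lay higher in Aβ42- cells without overlap numbered 11, or 15.9%, beside 4.05% of all genes. The count of calls was 1, or 1.45%, without young Aβ42+ replicate 1, 2 or 4 or young Aβ42- replicate 4, beside 0.966% to 1.21% of all genes.

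Among the H1 genes, Hist1h1c was at 76.5, 87.8, 125 and 98.9 TPM in the young Aβ42+ libraries (replicates 1 to 4) and at 182, 199, 316 and 214 TPM in the Aβ42- libraries. Every Aβ42- library lay above every Aβ42+ library, and the means were 97 ± 20.7 and 228 ± 60.5 TPM (log2 fold change 1.21 ± 0.20 (SE), adjusted p = 0.0179; exact two-sided permutation p = 0.0286, the smallest that 4 against 4 libraries allow). With the pool as a block the limma adjusted p was 0.00354. The call was lost without young Aβ42+ replicate 1, 2 or 4 (0.0546, 0.0679 and 0.0614) or young Aβ42- replicate 4 (0.0543), with the limma adjusted p of each such fit in brackets. Under TMM and median-of-ratios scaling the adjusted p was 0.492 and 0.266, with a fold change of 1.12 and 1.15. The other 5 H1 genes had fold changes of -0.39 to 0.39 and were not called.

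Among the H2A genes, Hist2h2aa2 was at 64.8, 46.1, 59.2 and 52.4 TPM in Aβ42+ and at 113, 99.1, 103 and 142 TPM in Aβ42- libraries, without overlap (log2 fold change 1.02 ± 0.15 (SE), adjusted p = 0.011). Its near-identical copy Hist2h2aa1 was at 92.6, 80.8, 60.7 and 64.5 TPM and at 124, 127, 99.8 and 125 TPM, also without overlap (limma adjusted p = 0.0886). The call of Hist2h2aa2 held in each fit without 1 library and was lost under upper quartile, TMM and median-of-ratios scaling (adjusted p of 0.0846, 1.00 and 1.00).

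Hist1h2an was at 4.43, 5.59, 3.43 and 5.18 TPM in Aβ42+ and at 34.1, 11.2, 30.2 and 21.4 TPM in Aβ42- libraries. The groups did not overlap (log2 fold change 2.06 ± 0.36 (SE), adjusted p = 0.0214), and with the pool as a block the adjusted p was 0.0625. Leaving out single libraries ended the call for young Aβ42+ replicate 1, 2 or 4 (0.066, 0.0599 and 0.0688) or young Aβ42- replicate 1, 3 or 4 (0.0578, 0.0813 and 0.0717). TMM and median-of-ratios scaling also ended it (adjusted p of 0.348 and 0.23). Hist1h2ap, another H2A gene, was at 37.3, 13.8, 10.2 and 10.2 TPM in Aβ42+ and at 164, 38.9, 43.1 and 51.4 TPM in Aβ42- libraries, so that replicate 1 stood far above the others in both groups (limma adjusted p = 0.184).

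By their titles, Aβ42+ and Aβ42- libraries of 1 number were taken as 1 pool, so the fit with the pool as a block compares same-numbered libraries. Across genes, deviations from the group means correlated at 0.437 to 0.635 in such pairs of replicates 1 and 3. Young and old libraries of these numbers, which are of different mice, correlated at 0.413 to 0.593. What the block takes up beyond the pool was not tested. The fit with the block called 9 members, all higher in Aβ42- cells, or 13% beside 1.41% of all genes. They were Hist1h1c, 6 H2A genes (Hist2h2aa1, Hist2h2aa2, Hist1h2ap, Hist1h2ao, Hist1h2ag and Hist1h2ah), the H2B gene Hist1h2br and the H4 gene Hist1h4m. Hist1h2ap rose in 4 of 4 pools (limma fold change 1.94 ± 0.16 (SE), adjusted p = 0.00785), as did Hist1h2ao (2.17 ± 0.33 (SE), adjusted p = 0.0438). No H3 gene was called in either fit, and the median fold change of the 12 H3 genes was 0.07. All 13 H4 genes had a fold change above 0, with a median of 1.00, and Hist1h4m was called in the fit with the block only.

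**Figure D3:**
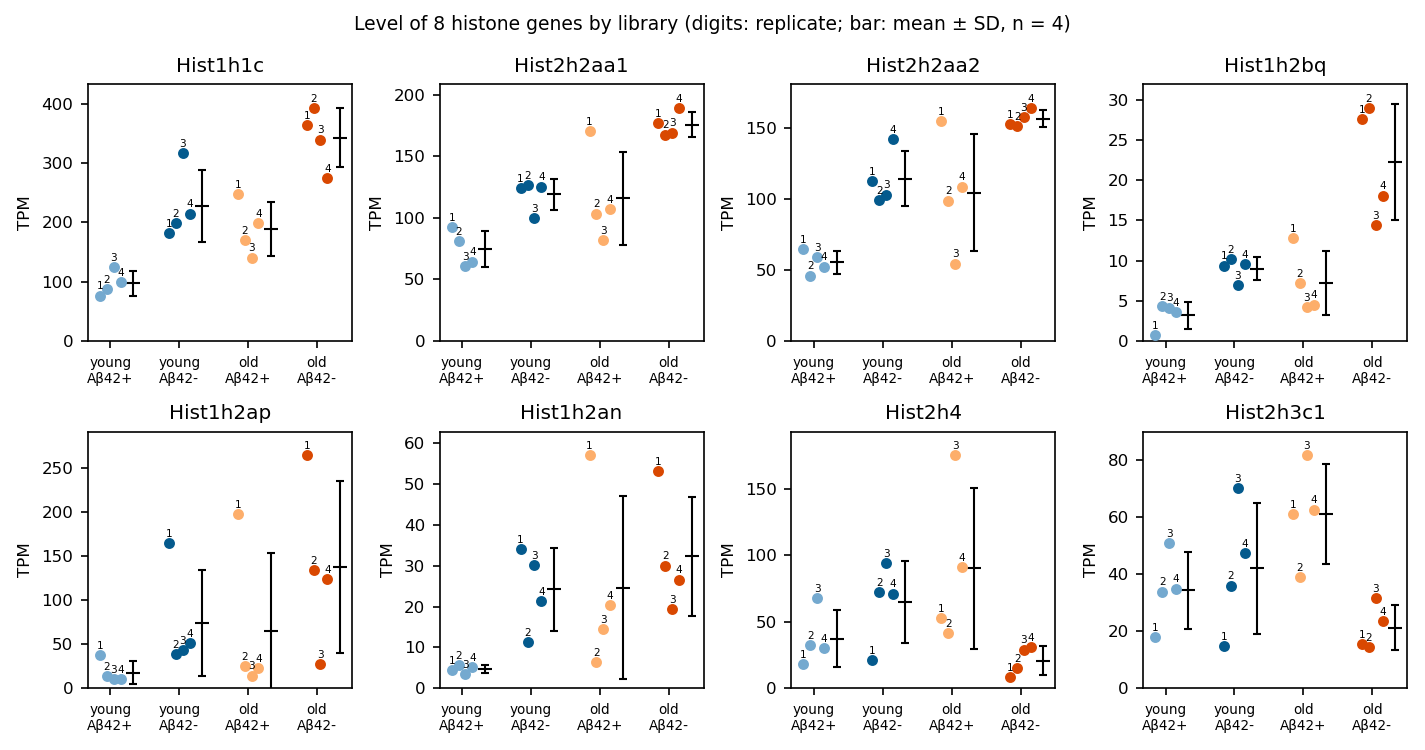
TPM (vertical axes, linear, from 0) of 8 histone genes in each library by group; digits give the replicate and bars the mean ± SD (n = 4). Hist1h1c, Hist2h2aa1 and Hist2h2aa2 are higher in Aβ42- than in Aβ42+ cells of young mice without overlap, Hist1h2ap has its highest value in replicate 1 of each group, and Hist2h4 and Hist2h3c1 are lower in old Aβ42- than in old Aβ42+ cells.

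In old mice the same comparison called 4 members, of which Hist1h1c and the H2B gene Hist1h2bq rose in Aβ42- cells and the H3 gene Hist2h3c1 and the H4 gene Hist2h4 fell. Each direction held 2.90% of the members, beside 4.74% of all 32429 genes that rose and 8.23% that fell. Under TMM and median-of-ratios scaling no member was called lower, and 2 and 1 were called higher. 42 of the 69 fold changes were below 0 under the deposited scaling, with a median of -0.28, whereas under TMM scaling 52 were above 0 with a median of 0.59. The median of all genes was -0.89 and that of the olfactory receptor genes -1.42, and TMM scaling moved the median of all genes to -0.26, so a member at the median of the class lay above both comparisons under either scaling. 2 members lay higher without overlap (2.90% beside 8.12% of all genes) and 7 lower (10.1% beside 13.8%). The count of calls was 28 (40.6%) without old Aβ42+ replicate 1, beside 55.1% of all genes, and 15 (21.7%) without old Aβ42- replicate 3, beside 37%. It was 2 (2.9%) without old Aβ42+ replicate 3, beside 5.92%, and none without any 1 of the other 5.

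Hist1h1c was at 248, 170.5, 140.5 and 198 TPM in old Aβ42+ and at 363, 393, 339.5 and 275 TPM in old Aβ42- libraries, with no overlap (log2 fold change 0.87 ± 0.21 (SE), adjusted p = 0.0363; 0.87 and 0.0143 with the pool as a block). This call did not hold without old Aβ42+ replicate 2 or 4 (0.0828 and 0.0914) or old Aβ42- replicate 1, 2 or 4 (0.119, 0.118 and 0.0746). Adding the log2 background as a covariate gave a fold change of 0.53 (limma adjusted p = 0.461), and TMM scaling one of 1.78 (adjusted p = 0.0554). The call was also lost under upper quartile and median-of-ratios scaling. The other 5 H1 genes had fold changes below 0, and with the pool as a block Hist1h1e, Hist1h1b and Hist1h1a fell, Hist1h1e with a fold change above 0 under TMM and median-of-ratios scaling.

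The H2B gene Hist1h2bq was at 12.8, 7.24, 4.20 and 4.52 TPM in old Aβ42+ and at 27.6, 29, 14.4 and 18.1 TPM in old Aβ42- libraries (log2 fold change 1.57 ± 0.38 (SE), adjusted p = 0.0362). The groups did not overlap, and its near-identical neighbour Hist1h2br had 13.6, 7.80, 8.40 and 6.03 TPM and 25.1, 27.1, 12 and 16.3 TPM (limma adjusted p = 0.0571). The gene lost its call without old Aβ42+ replicate 2, 3 or 4 (0.0745, 0.0612 and 0.0949) or old Aβ42- replicate 1, 2 or 4 (0.121, 0.12 and 0.0833). Both copies were low, with means over all libraries of 10.4 and 10.3 TPM. Of the more abundant H2B genes, Hist1h2bc had a fold change of 0.24 and Hist1h2bg of -0.10, neither called.

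Hist2h3c1, an H3 gene, was at 60.8, 39, 81.6 and 62.5 TPM in old Aβ42+ and at 15.5, 14.4, 31.7 and 23.4 TPM in old Aβ42- libraries (log2 fold change -1.50 ± 0.30 (SE), adjusted p = 0.0257). It was no longer called without old Aβ42+ replicate 2 or 4 (0.0529 and 0.0831) or old Aβ42- replicate 1, 2 or 4 (0.0963, 0.0942 and 0.0672). Hist2h4, an H4 gene, was at 52.6, 41.2, 175 and 91.2 TPM and at 8.25, 15, 29 and 31 TPM (log2 fold change -2.0 ± 0.51 (SE), adjusted p = 0.0397). No call was left without old Aβ42+ replicate 2, 3 or 4 (0.0659, 0.0703 and 0.0963) or old Aβ42- replicate 1, 2 or 4 (0.12, 0.121 and 0.0747). In neither gene did the groups overlap. TMM scaling gave limma fold changes of -0.61 (adjusted p = 0.17) and -1.12 (adjusted p = 0.0862), and median-of-ratios scaling -0.82 (adjusted p = 0.0849) and -1.32 (adjusted p = 0.0643), so neither was called lower under these. The background fell between the same groups, from 6.65 ± 4.85 TPM to 1.53 ± 1.31 TPM per gene, and with its level as a covariate the fold changes were -1.04 (adjusted p = 0.368) and -0.87 (adjusted p = 0.577). With the background subtracted they were -1.42 (limma adjusted p = 0.0416) and -1.98 (adjusted p = 0.0444), and its part in the result was not tested further.

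With the pool as a block, 28 members were called in old mice. 10 rose, or 14.5% beside 10.7% of all genes. They were Hist1h1c, the H2A genes Hist2h2aa1, Hist1h2ap, Hist1h2ao, Hist1h2ag and Hist1h2ad, the H2B genes Hist1h2bq, Hist1h2br and Hist1h2bj, and the H4 gene Hist1h4i. 18 fell, or 26.1% beside 47.2% of all genes, so the share that fell was below that of all genes. Under TMM scaling 3 of the 18, Hist1h3h, Hist1h1e and Hist1h3c, had fold changes above 0, and under median-of-ratios scaling the first 2 of these. The 18 held 3 H1, 2 H2A, 3 H2B, 7 H3 and 3 H4 genes, and 15 of the 18 had their highest level in replicate 3 in 3 or 4 groups, as the background had. Hist1h2ap was at 198, 25.4, 14.4 and 23 TPM in Aβ42+ and at 264, 134, 27.4 and 124 TPM in Aβ42- libraries, higher in 4 of 4 pools although the groups overlapped (limma fold change 1.51 ± 0.37 (SE), adjusted p = 0.0176 with the block, adjusted p = 0.17 without). Hist1h4i was at 95, 35.7, 59.2 and 77.3 TPM and at 114, 100.1, 86 and 111 TPM, also higher in 4 of 4 pools (adjusted p = 0.0375 with the block and 0.09 without).

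**Figure D4:**
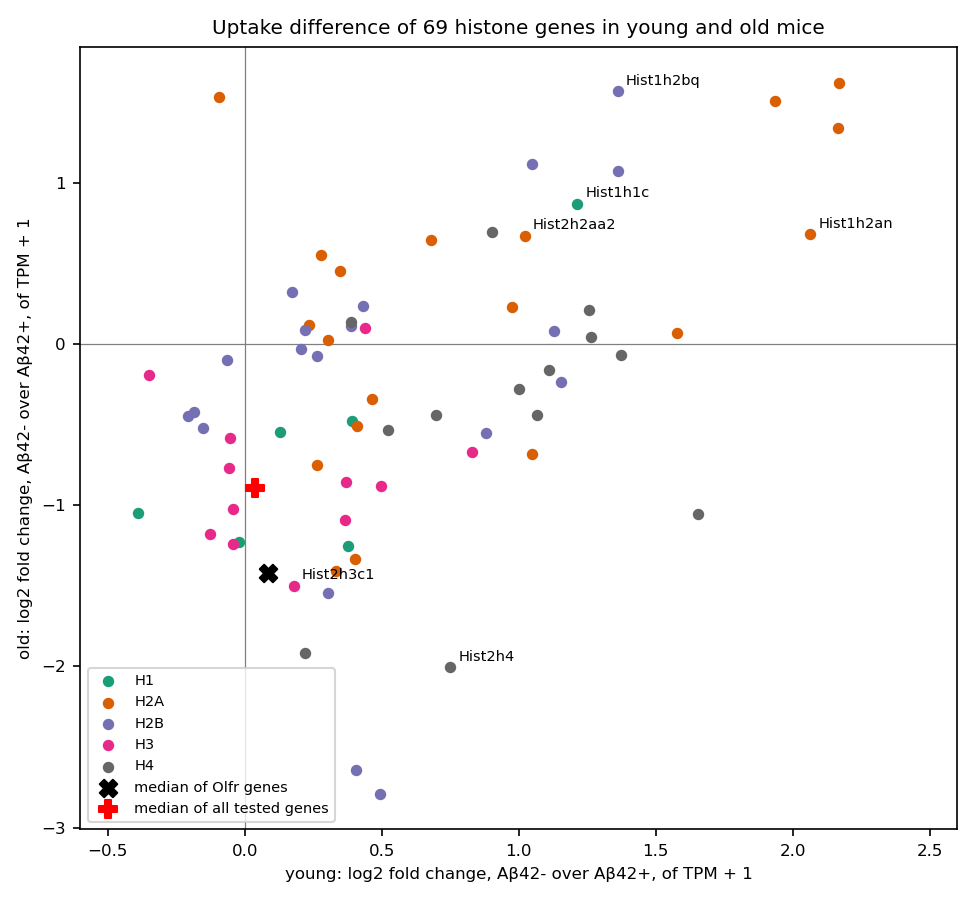
Log2 fold change of TPM + 1, Aβ42- over Aβ42+, of each histone gene in young mice (horizontal axis) and old mice (vertical axis), coloured by class, with the genes called in either comparison named and the medians of all tested genes and of the olfactory receptor genes marked. The H2A genes reach furthest to the upper right, and the 2 medians lie at -0.89 and -1.42 on the vertical axis, below most histone genes.

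The fit over all 16 libraries tested whether the uptake difference itself differed with age. It called none of the 69 members (limma, beside 0.0116% of all 34492 genes), and 14 had an unadjusted p under 0.05, or 20.3%, beside 20.1% of all genes. 62 of the 69 interaction values were below 0 as deposited, with a median of -0.87 beside -0.88 for all genes, but under TMM scaling 36 were above 0 and the median was 0.14. With the pool as a block 18 members were called, all lower, or 26.1% beside 31.6% of all genes. These were 3 H2A, 3 H2B, 6 H3 and 6 H4 genes and no H1 gene, and under TMM scaling 1 of them, Hist1h2al, had a value above 0. The count at an unadjusted p under 0.05 was 9 (13% beside 9.91% of all genes) when young Aβ42+ replicate 1 was left out. It was 7 (10.1% beside 10.1%) without young Aβ42- replicate 3 and 8 (11.6% beside 10.4%) without old Aβ42+ replicate 3, so it fell together with that of all genes. Hist2h4 had an interaction of -2.75 ± 0.35 (SE, log2 scale, limma adjusted p = 0.00855 with the block), Hist2h3c1 of -1.68 (adjusted p = 0.00871) and Hist1h1c of -0.34 (adjusted p = 0.21). Without replicate 3 of every group, the libraries with the highest background, no member was called in the fit without the block.

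Between old and young Aβ42- cells 1 member was called, Hist2h2aa1, which rose with age, 1.45% of the members beside 1.73% of all 31982 genes that rose. It was at 124, 127, 99.8 and 125 TPM in young and at 176, 167, 169 and 189 TPM in old libraries, without overlap (log2 fold change 0.56 ± 0.11 (SE), adjusted p = 0.0438). The adjusted p passed 0.05 without young Aβ42- replicate 2, 3 or 4 (0.136, 0.111 and 0.117) or old Aβ42- replicate 1, 2 or 4 (0.162, 0.128 and 0.135). Hist2h2aa2 had means of 114 ± 19.4 and 156 ± 5.86 TPM (adjusted p = 0.0818). Hist1h4i had 50.1 ± 18.1 and 103 ± 12.7 TPM (limma adjusted p = 0.0501, fold change 1.08) and Hist1h2bq 9.02 ± 1.42 and 22.3 ± 7.15 TPM (adjusted p = 0.0539), neither past the threshold.

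6 members lay higher in old Aβ42- libraries without overlap, Hist2h2aa1, Hist2h2aa2, Hist1h4i, Hist1h2ae, Hist1h2bq and Hist1h2br, or 8.70% beside 5.96% of all genes. None lay lower. The median fold change was 0.46 for H2A, 0.42 for H2B, 0.05 for H1, -0.27 for H3 and -0.09 for H4 genes, beside -0.56 for all genes and -0.97 for the olfactory receptor genes. Under TMM scaling the median of all 69 members moved from 0.13 to 0.63 and that of all genes to -0.17. The count of calls rested on single libraries, with 15 (7 higher, 8 lower, 21.7% in all) without young Aβ42- replicate 1, beside 42% of all genes, 7 (10.1%) without old Aβ42- replicate 3, beside 14.5%, and none without any 1 of the other 6.

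Between old and young Aβ42+ cells limma called none of the 69 members, beside 0.0268% of all 33578 genes. 30 had an unadjusted p under 0.05, or 43.5%, beside 9.22% of all genes. This count was 18 (26.1% beside 4.45% of all genes) without young Aβ42+ replicate 1 and 19 (27.5% beside 9.34%) without old Aβ42+ replicate 3. 68 of the 69 fold changes were above 0 as deposited and 61 under TMM scaling, where the median moved from 0.86 to 0.45. The limma count at an unadjusted p under 0.05 was 7 under TMM scaling (10.1% beside 4.41% of all genes). Under median-of-ratios scaling it was 6 (8.7% beside 4.17%). For all genes the median was 0.38 as deposited and 0.04 under TMM scaling, and for the olfactory receptor genes 0.55 and 0.24. The 8 members without overlap were all higher in old cells, or 11.6% beside 2.85% of all genes that lay higher. They were Hist1h1c, Hist1h4n, Hist1h4k, Hist1h2an, Hist1h2ai, Hist1h2bk, Hist1h2al and Hist1h2br. The mean of Hist1h1c was 97 ± 20.7 TPM in young libraries and 189 ± 45.6 TPM in old ones (fold change 0.95 ± 0.22 (SE), limma adjusted p = 0.404; exact permutation p = 0.0286, the smallest possible). The medians by class were 0.81 for H1, 0.84 for H2A, 0.97 for H2B, 0.81 for H3 and 1.20 for H4 genes. Without replicate 3 of both groups 4 members were called, all higher, namely Hist1h1c, Hist2h2aa2, the H2B gene Hist3h2ba and the H4 gene Hist1h4j, or 5.8% beside 1.09% of all genes.

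Within the groups the members followed 2 patterns across the libraries. 35 of the 69 members had their highest level in replicate 3 in 3 or 4 of the 4 groups, or 50.7%, and so had 109 of the 129 olfactory receptor genes above 0 in every library (84.5%) and 52.5% of the 34492 genes that reached 1 TPM in 4 or more libraries. This was the case for 9 of 12 H3, 4 of 6 H1, 7 of 13 H4, 9 of 19 H2B and 6 of 19 H2A genes. In Hist1h2bm, for example, the young libraries had 6.15, 23.3, 50.8 and 47.9 TPM (Aβ42+) and 9.28, 20.8, 87 and 50.9 TPM (Aβ42-) and the old ones 26.4, 41.7, 157 and 77.9 TPM (Aβ42+) and 16.4, 5.96, 46.1 and 34.1 TPM (Aβ42-), where replicate 3 was the highest each time. Hist4h4, Hist2h3b, Hist2h3c2, Hist2h2ab, Hist1h1e and Hist1h1d did the same in all 4 groups. These libraries have the highest background, and its part in the levels of these members was not tested.

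8 members had their highest level in replicate 1, the library with the lowest background, in 3 or 4 of the groups, or 11.6%, beside 14.8% of all genes, and all 8 were H2A genes of the Hist1 cluster (Hist1h2ap, Hist1h2ao, Hist1h2ag, Hist1h2ac, Hist1h2an, Hist1h2ad, Hist1h2af and Hist1h2ah). Hist1h2ao was at 26.9, 20.4, 5.56 and 6.29 TPM (Aβ42+) and 144, 38.7, 43.5 and 44.5 TPM (Aβ42-) in young libraries, and at 148, 18.2, 15.7 and 30.5 TPM (Aβ42+) and 235, 127, 40.4 and 108 TPM (Aβ42-) in old ones. Hist1h2ag was at 10.5, 2.65, 9.76 and 7.36 TPM, 94.9, 24, 25.4 and 23.1 TPM, 128, 9.14, 9.19 and 19.2 TPM and 161, 79.3, 13.1 and 60.1 TPM in the same order. Hist1h2ap, Hist1h2ao, Hist1h2ag and Hist1h2ac were highest in replicate 1 of all 4 groups, and the others in 3. Each member of this set shared 85-base windows with 22 to 38 other genes, so they are not independent measurements.

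Genes of the cell cycle were compared in the same way. In the list of S phase genes, which also holds Slbp, 9 of 24 rose in Aβ42- cells of young mice and 17 of 24 in those of old mice, and none fell (with the pool as a block 8 in young and 19 in old mice rose). Pcna, the clamp that holds DNA polymerases to the template, was the highest with 559 ± 75.1 TPM in young Aβ42+ and 538 ± 35.4 TPM in young Aβ42- and did not pass the test (limma adjusted p of 1, and 0.471 in old mice), nor did the licensing factor Cdt1. The median fold change of the list was 0.83 in young and 1.28 in old mice, beside 0.04 and -0.89 for all genes, each under the deposited scaling. TMM scaling moved the medians of all genes to -0.04 and -0.26, and that of the list under TMM scaling was not taken. Rrm2, a subunit of ribonucleotide reductase, rose from 35.6 ± 9.46 to 141 ± 22.8 TPM in young mice (log2 fold change 1.98 ± 0.20 (SE), adjusted p = 0.00118 by limma) and from 95 ± 33.7 to 333 ± 102 TPM in old mice (log2 fold change 1.80 ± 0.31 (SE), adjusted p = 0.0184). The helicase subunit Mcm3 rose in both (log2 fold changes 0.84 and 1.24). Of the 20 genes of G2 and mitosis 9 rose in young and 14 in old mice and none fell (5 in young and 18 in old mice with the block), for example Cdk1, the mitotic kinase, at 14.7 ± 2.65 TPM in young Aβ42+ and 41.7 ± 4.51 TPM in young Aβ42- cells. Between old and young Aβ42- cells 9 S phase and 8 mitosis genes rose and none fell, and between old and young Aβ42+ cells 1 did, Ube2c, a ubiquitin-conjugating enzyme of mitosis (log2 fold change 1.68 ± 0.17 (SE), adjusted p = 0.0182 by limma).

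Of the 11 histone variant genes outside the clusters 2 rose in Aβ42- cells of young mice, H2afx and H2afv, and in old mice the same 2 rose and H1fx, a linker histone, fell. With the pool as a block 2 rose in young mice, and in old mice 4 rose and 2 fell. H2afx, whose product marks DNA breaks and which makes both kinds of transcript end, had 76 ± 16.6, 167 ± 18.5, 153 ± 18.4 and 300.2 ± 60.5 TPM in the 4 groups (log2 fold change 1.14 ± 0.16 (SE), adjusted p = 0.00742 in young mice by limma). H3f3a, H3f3b and H2afz, the highest of the list at 477, 323 and 277 TPM over all libraries, passed in no comparison. By mean level each of these 3 lay above every clustered gene. H2afx and H2afj rose between young and old Aβ42- cells (log2 fold changes 0.83 and 0.63).

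Of the 20 genes for the 3′ end and transcription of histone mRNA 1, Cdk2, rose in Aβ42- cells of young mice and 5 in those of old mice, and none fell (1 in young and 12 in old mice with the pool as a block). Slbp, the stem-loop binding protein, was at 51.9 ± 9.27, 62 ± 12, 46.9 ± 16.2 and 82 ± 10.7 TPM in the 4 groups and passed at neither age without the block (limma adjusted p of 1 and 0.0598), while with it Slbp rose in old mice (adjusted p = 0.0117). Lsm10, a subunit of the U7 particle, rose in old mice (log2 fold change 0.76 ± 0.22 (SE), adjusted p = 0.0486), and Lsm11, its partner there, did not pass (log2 fold change -0.16, adjusted p = 0.533). Of the 3 highest of the list, Ptbp1 passed at neither age in either fit, and Eri1 and Cstf2t passed in old mice with the block only (limma adjusted p of 0.0121 and 0.0145). Of 18 histone chaperone genes 2 rose in young Aβ42- cells, Asf1b and Chaf1a, and 5 in old ones, among them the same 2, and none fell (2 in young and 11 in old mice with the block). Asf1b, which hands H3 and H4 to the replication fork, had 14.9 ± 5.05, 65.6 ± 10.2, 42.2 ± 13 and 184 ± 61.3 TPM in the 4 groups (log2 fold change 2.10 ± 0.23 (SE), adjusted p = 0.00168 in young mice by limma). Npm1, Supt16 and Set, the 3 highest chaperone genes, passed in no comparison. Between old and young Aβ42- cells 3 genes of each of these 2 lists rose and none fell, and between the Aβ42+ groups none was called in either. The median fold change of the 19 genes of the 3′ end list that were tested was -0.02 in young and 0.60 in old mice, and that of the chaperones 0.05 and 0.54, beside 0.04 and -0.89 for all genes.

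Markers of other cells moved between the same groups. All 4 granulocyte precursor genes rose in Aβ42- cells at both ages, with Mpo, a peroxidase of their granules, at 29.2 ± 7.29, 434 ± 75, 104 ± 78.5 and 684 ± 119.6 TPM in the 4 groups. Neutrophil genes summed to 2578 to 3442 TPM in young Aβ42+ and 5489 to 7479.8 TPM in young Aβ42- libraries, and 7 of 8 rose in young and 1 in old mice (8 in young and 2 in old mice with the block). The S phase sum was 1215 to 1480.3, 1676 to 2054, 1202 to 1709 and 2167 to 3315 TPM over the libraries of the 4 groups. In old Aβ42+ libraries the granulocyte precursor sum was 781, 306, 141 and 231 TPM and the S phase sum 1709, 1385, 1202 and 1477 TPM (replicates 1 to 4), beside an H2A sum of 1265, 507, 771 and 634 TPM. Without the block no granulocyte precursor gene was called with age in either fraction, and 4 of 10 microglia markers fell between young and old Aβ42- cells. With the replicate number as a block, 2 of the 4 granulocyte precursor genes rose and 9 of 10 microglia markers fell between young and old Aβ42- cells. In the uptake comparisons without the block 2 of 5 T and NK cell markers rose at each age, none of 6 B cell, 7 erythroid, 5 neuron, 5 oligodendrocyte or 5 astrocyte markers was called, and in old mice 1 of 5 endothelial markers rose, 1 fell, and 1 of 3 choroid plexus markers fell. With the pool as a block 4 erythroid and 2 T and NK cell markers rose in young mice. In old mice the block gave 3 T and NK cell, 3 B cell, 1 oligodendrocyte and 1 endothelial marker higher, and 1 B cell, 1 erythroid, 3 neuron, 2 oligodendrocyte, 3 astrocyte, 4 endothelial and 2 choroid plexus markers lower. In the uptake comparisons the same granulocyte precursor counts came with the block, and no microglia marker was called between Aβ42- and Aβ42+ cells in either fit. The part of these cells in the histone values was not tested.

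**Figure D5:**
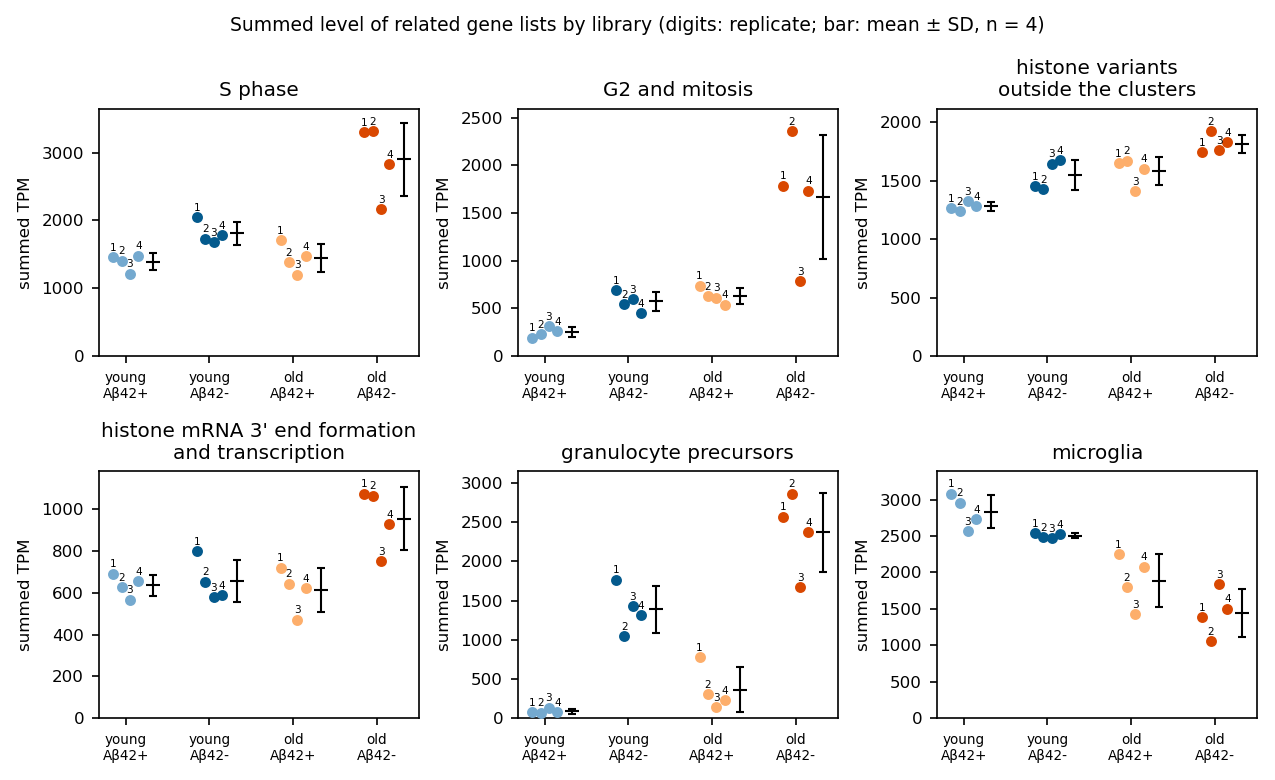
Summed TPM (vertical axes, linear, from 0) of 6 gene lists in each library by group; digits give the replicate and bars the mean ± SD (n = 4). The granulocyte precursor sum is 72.2 to 136 TPM in young Aβ42+ and 1044 to 1767 TPM in young Aβ42- libraries, and the S phase sum is highest in old Aβ42- cells, whereas the mean microglia sum is lower in old than in young cells.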

How the data were processed

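RNA of 16 libraries (4 groups of 4) was measured by poly(A)-selected, directional RNA-seq. According to the study's methods and the submitters' processing notes, the authors trimmed reads with Trim Galore 0.4.2 and cutadapt 1.9.1, aligned them to mm10 with STAR 2.5.2a, removed duplicates with Picard 1.89, counted them per RefSeq gene with featureCounts 1.6.2, and deposited TPM values (35869 genes, each column summing to 1000000). Removing duplicates can cap the highest levels, the largest deposited value being 3785 TPM, and whether reads that map to several copies were counted is not given in the sources used here. TPM hold no read counts, so no count test was run, depth is unknown, and no interval from depth is given.

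TPM were taken as log2(TPM + 1), so fold changes of low genes are understated. Genes that reached 1 TPM in 4 or more libraries of a fit were tested with limma 3.58.1 (trend, R 4.3.3) and Benjamini-Hochberg adjustment over all of them, each comparison with its 8 libraries, the interaction with all 16. All 69 members passed this filter in each fit. The scripts were tested on simulated data. The replicate number links Aβ42+ and Aβ42- libraries of 1 pool of mice by their titles; across genes the deviations of same-numbered libraries from their group means correlated at 0.437 to 0.635 for replicates 1 and 3 and at -0.0441 to 0.0555 for 2 and 4. Background is the mean of olfactory receptor genes without the lowest and highest 10%. The members and gene lists were chosen with earlier results of these data known. Named were the 15 highest members, the 3 highest and the lowest of each class, every called member, and of each list the 3 highest and up to 5 called genes, while others were named after their values were seen. p-values without the block measure the spread between libraries of a group, each from 1 pool of mice. In the uptake and interaction fits they leave out that Aβ42+ and Aβ42- libraries share pools. With the pool as a block they measure the spread of the differences within pools. Tables were made with Python 3.11.15. TMM, upper quartile and median-of-ratios factors, the background subtracted or as a covariate, other filters and pseudocounts, the block, and libraries left out were tried as alternatives. Annotation came from GENCODE M21 (GRCm38), in which all 69 symbols matched.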

Additional observations from a re-analysis of the deposited data

Results flagged for a closer look

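In 120 groups of 4 libraries (25 named genes and 5 class sums in each of 4 groups, on the log2 scale), 5 libraries stood apart from the other 3 by a gap larger than Dixon's critical value, where chance flags about 1 group in 20. Hist2h2aa1 in young Aβ42- replicate 3 was at 99.8 TPM, beside 124 to 127 TPM in the other 3. Hist1h2ao in young Aβ42- replicate 1 was at 144 TPM, beside 38.7 to 44.5 TPM. Hist1h2ak in old Aβ42+ replicate 3 was at 32.4 TPM, beside 9.68 to 10.7 TPM, and the H2B sum of that library was 957 TPM, beside 490.1 to 523 TPM. Hist1h2bq in young Aβ42+ replicate 1 was at 0.767 TPM, beside 3.59 to 4.35 TPM.

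The uptake difference itself differed between young and old mice for 7 named genes in the limma fit with the pool as a block. The interaction (old minus young, log2 scale, adjusted p at most 0.05) was Hist2h2ab -1.74 ± 0.31 (SE, adjusted p = 0.0105), Hist2h4 -2.75 ± 0.35 (SE, adjusted p = 0.00855), Hist2h3c2 -1.05 ± 0.24 (SE, adjusted p = 0.0168), Hist1h2bm -1.85 ± 0.41 (SE, adjusted p = 0.0153), Hist2h3b -1.20 ± 0.31 (SE, adjusted p = 0.0232), Hist2h3c1 -1.68 ± 0.22 (SE, adjusted p = 0.00871) and Hist4h4 -2.14 ± 0.46 (SE, adjusted p = 0.0146). None was called without the block. In the same fit 31.6% of all genes were called lower and the median interaction of the olfactory receptor genes was -1.52.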

How the results depend on the processing

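Counts of called members moved with scaling, filter, block and single libraries, while the 8 fold changes called without the block kept their direction under each alternative, and the cause of the changes was not tested. Members called only with the block were followed across scalings alone, where 3 of the 18 lower in old Aβ42- cells turned above 0 with TMM factors. For old against young Aβ42- cells the count of 1 became 0 with upper quartile, TMM or median-of-ratios factors, or the background as covariate. It was also 0 with all 16 libraries in 1 fit. With the background subtracted it was 5 (7.25% of the members beside 8.59% of all genes, called in either direction). With a minimum mean of 5 TPM it was 5 (7.25% beside 10.8%), and with 1 library left out 0 to 15. For young Aβ42- against Aβ42+ cells the count of 3 became 0 with TMM or median-of-ratios factors. It was 10 with the background as covariate (14.5% beside 3.19%) and 9 with the replicate block (13% beside 1.84%). With 1 library left out it was 1 to 3. For old Aβ42- against Aβ42+ cells the count of 4 became 2 with TMM factors (both higher, 2.9% beside 5.1%). It was 1 with median-of-ratios factors (higher, 1.45% beside 5.68%) and 0 with the background as covariate. It was 9 with a minimum mean of 5 TPM (13% beside 23.3%) and 9 with all 16 libraries in 1 fit (13% beside 20.6%). With the replicate block it was 28 (40.6% beside 57.9%). With 1 library left out it was 0 to 28, with 28 without old Aβ42+ replicate 1, 15 without old Aβ42- replicate 3, 2 without old Aβ42+ replicate 3 and 0 without any other. For old against young Aβ42+ cells the count stayed at 0 in each of these, and for the interaction it became 18 with the pool block only (26.1% beside 36.9%). Without replicate 3 of every group, a choice made after seeing the data, the counts were 4, 5, 2, 14 and 0 for old against young Aβ42+ and Aβ42-, uptake in young and in old, and the interaction, beside 2.11, 9.37, 1.3, 36.9 and 0.00595% of all genes. Young and old libraries share only a number. The replicate block gave 8 calls (5 higher, 3 lower, 11.6% beside 12.2% of all genes) in Aβ42- and 0 in Aβ42+ cells there, and same-numbered libraries correlated at 0.413 to 0.593 for replicates 1 and 3 and at -0.0622 to 0.0318 for 2 and 4. 12 members lay above the 99th and 26 above the 90th percentile of the olfactory receptors in all libraries. With the background subtracted, the H2A sum of young Aβ42+ was 303.0 and the H2B sum of old Aβ42- 470.0 TPM, and 18 of 20 class sums moved by less than 1 SD. The call held in 16 of 19 (adjusted p 0.00819 to 1) alternatives for Hist2h2aa2, in 13 of 19 (adjusted p 0.00354 to 0.492) and 10 of 19 (adjusted p 0.0143 to 0.461) for Hist1h1c in young and old mice, in 12 of 19 (adjusted p 0.0047 to 0.431) for Hist1h2bq, in 11 of 19 (adjusted p 0.00399 to 0.368) for Hist2h3c1, in 10 of 19 (adjusted p 0.00446 to 0.577) for Hist2h4, in 8 of 19 (adjusted p 0.00977 to 0.348) for Hist1h2an and in 8 of 19 (adjusted p 0.0186 to 0.196) for Hist2h2aa1. The unknown depth limits statements on members below about the 95th percentile of the olfactory receptors.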

Other observations

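Some members are known from other tissues. Hist1h1t, Hist1h2ba and Hist1h2aa encode histones of the testis, and Hist2h2be encodes the H2B variant H2BE of olfactory neurons. They were chosen for these roles after their values were seen. Hist1h2ba was at 8.30 to 50.2 TPM, above the 95th percentile of the olfactory receptor genes in 13 of 16 libraries, and Hist1h2aa at 1.75 to 38.4 TPM, above it in 13. Hist2h2be was at 6.71 to 27.6 TPM, above it in 9 libraries. The 2 pseudogenes were in the same range, with 7.94 to 27.6 TPM for Hist1h2al and 0 to 74.5 TPM for Hist3h2bb-ps.

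Hist1h2bc and Hist1h2bg, the highest H2B genes, had levels of 37.2 to 106 TPM and 35.3 to 101 TPM over the 16 libraries. In neither was replicate 3 the highest library of any group, and neither was called in any of the 4 comparisons.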
